A study of Mus musculus with 11 samples.

Results

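The 7 genes described here are carriers and regulators of cellular glucose entry, followed through hearts in which the fatty acid transporter gene Cd36 had been targeted. They are the facilitative glucose carriers Slc2a1 (GLUT1), Slc2a3 (GLUT3), Slc2a4 (GLUT4), Slc2a8 (GLUT8) and Slc2a12 (GLUT12), and the Rab GTPase-activating proteins Tbc1d1 and Tbc1d4 (AS160). They were found by gene symbol, 7 of 23420 genes in the deposited table, and each gave exactly 1 row. The measurement was RNA sequencing of whole heart tissue, with 2 Control libraries and 3 libraries from each of 3 knockout groups. All groups carry the same strain label, a cross of Cd36 loxP mice. In EC KO hearts Cd36 was deleted through Tie2-cre, a driver active in endothelial cells and also in blood-forming cells. In CM KO hearts it was deleted through MHC-cre, a cardiomyocyte driver. The Total KO group is labelled as a total knockout; the labels do not describe its making and give no Cre for Control. Ages are not given. The stated purpose was to learn how endothelial Cd36 affects lipid and glucose metabolism, and the labels do not say whether libraries of 1 group came from separate animals, so p-values reflect only differences among libraries, which may be technical.

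Glucose enters cells down its gradient through carriers of the Slc2a family. In resting heart muscle most GLUT4 is held in vesicles inside the cell, while GLUT1 sits largely at the surface. Insulin, acting through Akt, and contraction, acting partly through AMP-activated protein kinase, lead to phosphorylation of Tbc1d4 and Tbc1d1, which then no longer hold vesicle Rab proteins in the inactive state, and GLUT4 vesicles fuse with the plasma membrane. The values here are transcript levels and say nothing of protein, phosphorylation or the place of a carrier in the cell.

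The normalized read count used throughout is the number of reads of a gene divided by 1 factor per library. Differences are log2 with the standard error (SE) from a limma model over all 11 libraries, and a gene was called at an adjusted p (Benjamini-Hochberg over 12976 genes tested) under 0.05. All 7 genes passed the filter of a mean of at least 10. Recovered reads ran from 11157062 to 20105673 in 10 libraries and came to 2268403 in EC KO replicate 1, so counts of low genes in that library are the least certain. Cd36 itself read 44530 and 35425 in Control and 15792 to 30308 in the 9 knockout libraries, and it was called lower in CM KO (by limma, adjusted p = 0.00863) but in neither EC KO (adjusted p = 0.298) nor the Total KO hearts (adjusted p = 0.0809). The table gives 1 value for the whole gene, so reads from a deleted part are not seen apart. The library numbers in the labels lie in separate ranges for CM KO, for Control with EC KO, and for Total KO. What these numbers mean is not given, and whatever they stand for cannot be told apart from the groups.

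The promoters of the 3 genes that differed between CM KO and the other knockouts and had an entry in the table used are shown here as the sequence next to the genes described below. They are RefSeq sequence on GRCm38.p6, cut to end before the first annotated transcript start. Of the 7 genes, 5 had an entry, and Slc2a3 and Slc2a4 are named only. Capitals mark matches to a short motif.
Slc2a1, chr4:119108495-119108710, plus strand: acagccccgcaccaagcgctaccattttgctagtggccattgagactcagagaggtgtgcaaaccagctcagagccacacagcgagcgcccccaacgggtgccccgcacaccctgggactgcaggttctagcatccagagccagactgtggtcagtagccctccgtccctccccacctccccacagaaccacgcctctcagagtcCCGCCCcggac
Slc2a12, chr10:22644761-22644989, plus strand: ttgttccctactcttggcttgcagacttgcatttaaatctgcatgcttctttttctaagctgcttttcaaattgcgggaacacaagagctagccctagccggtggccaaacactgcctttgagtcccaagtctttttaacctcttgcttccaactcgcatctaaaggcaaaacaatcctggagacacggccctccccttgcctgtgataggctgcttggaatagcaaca
Tbc1d4, chr14:101609282-101609441, minus strand: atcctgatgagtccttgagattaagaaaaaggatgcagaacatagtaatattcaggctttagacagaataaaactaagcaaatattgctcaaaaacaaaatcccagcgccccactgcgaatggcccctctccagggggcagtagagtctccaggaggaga
Both strands were searched for the TATA box TATAAA, for the CCAAT box, for the GC box GGGCGG, for the hypoxia factor core ACGTG, for the E-box CACGTG, which contains that core, and for the MEF2 site. The Slc2a1 window of 216 bases held 1 GGGCGG match, on the strand opposite to the one printed, a motif found in 31.6% of 32851 promoters cut to that length. The windows of Slc2a12 (229 bases) and Tbc1d4 (160 bases) held none of these motifs, which were found in 1.54% (MEF2 site) to 32.1% (GGGCGG) of promoters at the first length and in 1.07% to 29.3% at the second. These matches describe letters only.

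Slc2a4 was by far the most abundant of the 7 transcripts. Per kilobase of annotated exon, its normalized count averaged 3044 over the 11 libraries, and 1.87% of the tested genes with a length were higher. Tbc1d4 followed at 289 per kb (19.8% of genes higher), then Slc2a8 at 216 and Slc2a1 at 131. Slc2a12 and Tbc1d1 stood at 42.4 and 40.1 per kb, and Slc2a3 was lowest at 11.2, with 87.5% of genes higher. Slc2a8 lay above Slc2a1 in the group means of all 4 groups, from 208.7 against 152 per kb in EC KO to 218 against 110.4 in Control. Slc2a12 and Tbc1d1, next to each other in this order, changed places: Slc2a12 was the higher of the pair in Control (54.7 ± 5.62 against 39.9 ± 1.27 per kb, SD, n = 2) and the lower in CM KO (22.7 ± 7.82 against 37.7 ± 1.86, n = 3). In EC KO this pair stood at 44.2 ± 5.24 and 41.4 ± 1.01 per kb, closer than the SD of Slc2a12.

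As a share of the 5 carriers' summed normalized count per kb, Slc2a4 made up 85.2% to 89.4%. The 6 EC KO and Total KO libraries all gave Slc2a4 at least 88.9% of the sum, above each Control library (86.4% and 88.2%) and each CM KO library (85.2% to 88.5%). Slc2a8 contributed 5.33% to 8.36%, Slc2a1 3.38% to 5.06%, Slc2a12 0.689% to 1.99% and Slc2a3 0.125% to 0.684%. These shares describe RNA of the whole tissue, in which fewer cells of a type and less RNA per cell cannot be told apart.

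**Figure D1:**
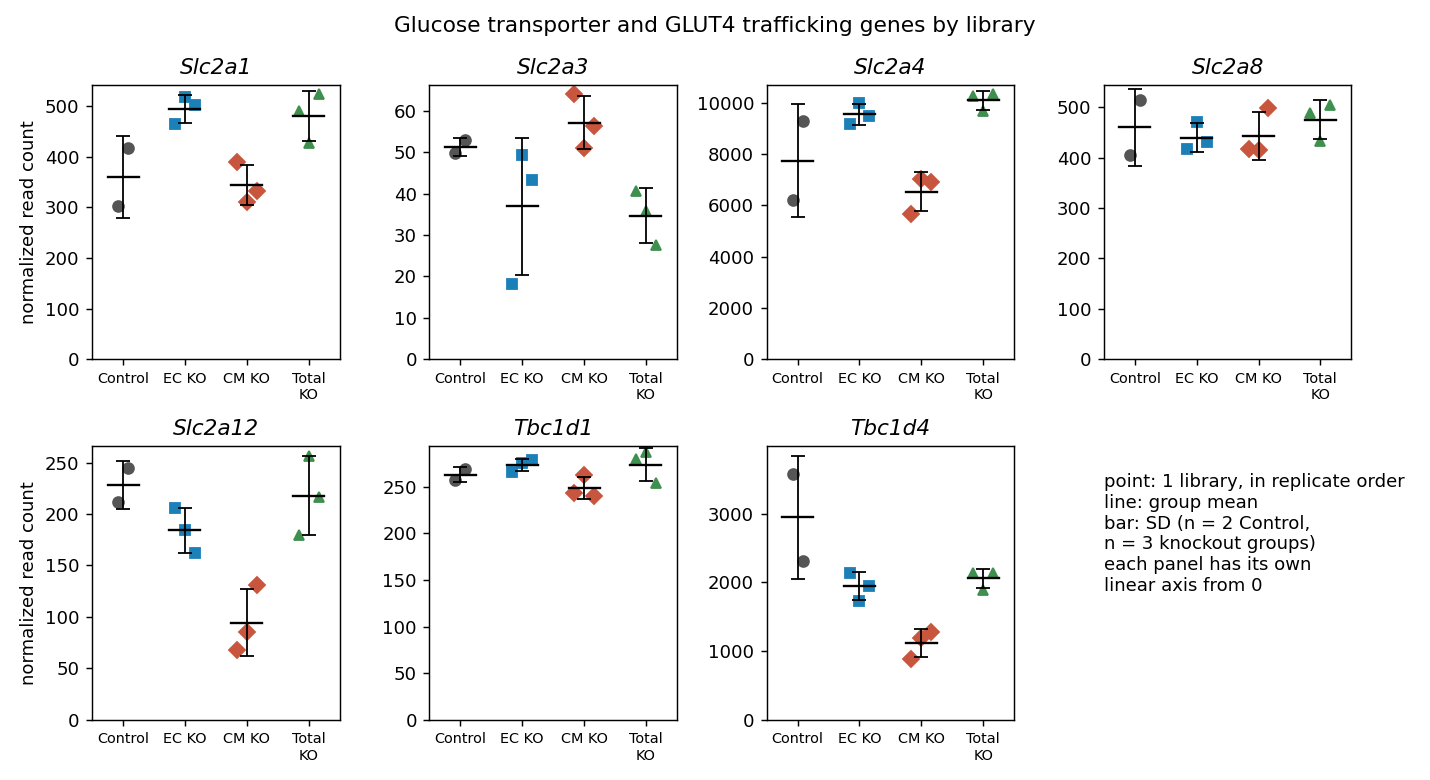
Normalized read count (vertical axis, linear from 0, a separate scale for each gene) of the 7 genes in the 11 libraries, grouped along the horizontal axis as Control (n = 2), EC KO, CM KO and Total KO (n = 3 each); points are libraries, lines means and bars SD. Tbc1d4 and Slc2a12 are lowest in the 3 CM KO libraries, while Slc2a1 and Slc2a4 are high in EC KO and Total KO and the 2 Control libraries lie far apart for Slc2a4 and Tbc1d4.

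Tbc1d4, which restrains GLUT4 vesicles until Akt phosphorylates it, had the largest difference of the 7 from Control. The Control libraries gave normalized counts of 3577 and 2308, those of EC KO 2139, 1732 and 1952, those of CM KO 889, 1193 and 1271, and those of Total KO 2141, 1890.2 and 2137. All 3 CM KO libraries lay below every other library, and both Control libraries lay above all 9 knockout libraries. The CM KO mean was 0.380 times that of Control, a log2 difference of -1.38 ± 0.18 (SE; limma adjusted p = 0.00303), and Tbc1d4 ranked 24 by p among all genes tested in that comparison. The EC KO difference from Control (-0.57 ± 0.18, adjusted p = 0.280, 95% interval -0.97 to -0.17) and that of Total KO (-0.49 ± 0.18, adjusted p = 0.490, interval -0.88 to -0.09) did not pass the limma test. The Control libraries differed from each other by more than the libraries of EC KO or of Total KO did among themselves, and they serve in all 3 comparisons. Tbc1d4 was called higher in EC KO than in CM KO (0.81 ± 0.16, adjusted p = 0.00624) and higher in Total KO than in CM KO (0.89 ± 0.16, adjusted p = 0.00555), by limma. Without Control replicate 1, which holds the high value, the difference of CM KO from Control was -1.06 with adjusted p = 0.0508 by limma, and it was called under the 22 other alternatives. With replicates 1 of the 3 knockout groups left out together, the difference between EC KO and CM KO was 0.58 and did not pass (limma adjusted p = 0.0663).

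Slc2a12, a carrier that also takes up glucose in insulin-responsive tissues, followed Tbc1d4 in CM KO. Control read 211 and 245, EC KO 205, 185 and 162, CM KO 67.9, 84.8 and 131, and Total KO 179, 257 and 217. The 3 CM KO values lay below all 8 others, and the Total KO range spanned that of Control. CM KO stood at 0.415 times the Control mean, a log2 difference of -1.31 ± 0.24 (SE; limma adjusted p = 0.0133). It was called higher in EC KO than in CM KO (1.0 ± 0.21, adjusted p = 0.00799) and higher in Total KO than in CM KO (1.23 ± 0.21, adjusted p = 0.00467), again by limma. Against Control, EC KO gave -0.31 ± 0.24 (adjusted p = 0.688, 95% interval -0.83 to 0.21) and Total KO -0.08 ± 0.24 (adjusted p = 0.976, -0.60 to 0.44), neither past the limma test. The call between CM KO and Control was lost without Control replicate 1 (-1.42, adjusted p = 0.113), without Control replicate 2 (-1.21, adjusted p = 0.0537) and in a limma fit to these 2 groups alone (-1.31, adjusted p = 0.0719). That between EC KO and CM KO was lost with replicates 1 of the 3 knockout groups left out together (0.71, adjusted p = 0.0550 by limma).

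Slc2a12 lies at chr10:22645011-22704285 on the plus strand of GRCm38, and an exon of Tbpl1, on the other strand, overlaps one of its exons. The library kit keeps the strand of the RNA, but the strand setting of the counting is not given. Tbpl1 read 194 to 235 in the 11 libraries and differed by -0.03 ± 0.12 between CM KO and Control (limma adjusted p = 0.920). Tbc1d4 lies at chr14:101442360-101609191 on the minus strand, with no exon shared with another annotated gene.

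Slc2a4, the insulin-responsive carrier of heart and skeletal muscle, separated CM KO from the other 2 knockout groups. Counts were 6191 and 9295 for Control, 9172, 9974 and 9491 for EC KO, 5652, 7008 and 6911 for CM KO, and 10255, 9679.6 and 10340.0 for Total KO. The 3 CM KO libraries lay below the 6 libraries of EC KO and Total KO with a wide gap, and Control was split, replicate 1 lying among CM KO and replicate 2 among EC KO. EC KO exceeded CM KO by 0.56 ± 0.14 (log2 ± SE; limma adjusted p = 0.0153), a ratio of means of 1.46. Total KO exceeded CM KO by 0.64 ± 0.14 (limma adjusted p = 0.0106), a ratio of 1.55. With replicates 1 of the 3 knockout groups left out together, neither passed the limma test (0.48, adjusted p = 0.0847, and 0.52, adjusted p = 0.0751), and without EC KO replicate 2 the difference between EC KO and CM KO had adjusted p = 0.0562. Against Control, EC KO gave 0.33 ± 0.15 (adjusted p = 0.480), CM KO -0.22 ± 0.15 (adjusted p = 0.450) and Total KO 0.41 ± 0.15 (adjusted p = 0.478), none of which passed the limma test. Without Control replicate 2 the CM KO difference was 0.07, of the opposite sign, and without replicate 1 it was -0.52.

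Slc2a1, the carrier of basal glucose entry, is expressed in cardiomyocytes and in endothelial cells. Control libraries read 302 and 418, EC KO libraries 465, 518 and 502, CM KO libraries 389.6, 311 and 332, and Total KO libraries 490.1, 428 and 525. Each EC KO and Total KO library lay above both Control libraries and above the 3 CM KO libraries. By limma, Slc2a1 was called higher in EC KO than in CM KO (0.53 ± 0.13, adjusted p = 0.0177; ratio of means 1.44) and higher in Total KO than in CM KO (0.48 ± 0.13, adjusted p = 0.0293; ratio 1.40). Against Control the differences of EC KO (0.48 ± 0.15, adjusted p = 0.275, 95% interval 0.15 to 0.80) and Total KO (0.43 ± 0.15, adjusted p = 0.431, 0.10 to 0.76) were of like size but did not pass the limma test, and CM KO differed by -0.05 ± 0.15 (adjusted p = 0.888). The call between EC KO and CM KO was lost without EC KO replicate 2 (adjusted p = 0.0603), CM KO replicate 2 (0.0503) or CM KO replicate 3 (0.0544), and after rescaling by library totals (0.0558), in each case by limma. That between Total KO and CM KO was lost without CM KO replicate 2 (0.0798) or 3 (0.0798), without Total KO replicate 1 (0.0833) or 3 (0.113), after rescaling by library totals (0.101), and with replicates 1 of the 3 knockout groups left out together (0.0660). Slc2a1 lies at chr4:119108711-119137983 on the plus strand, and the antisense gene Gm12868, which overlaps one of its exons, is not listed in the table.

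Slc2a3, a carrier best known from neurons and blood cells, was the least abundant of the 7. Control gave 49.7 and 52.9, EC KO 18.1, 49.3 and 43.3, CM KO 64.0, 51.2 and 56.4, and Total KO 40.7, 35.8 and 27.5. The value of 18.1 in EC KO replicate 1 rests on 3 reads. Total KO lay below Control and below CM KO in every library, and EC KO also lay below both groups in every library, by 49.3 against 49.7 at the nearest. None of the 6 comparisons passed the limma test, with -0.73 ± 0.32 for EC KO minus CM KO (adjusted p = 0.127) and -0.72 ± 0.32 for Total KO minus CM KO (adjusted p = 0.149). The latter passed under 3 of 22 alternatives: edgeR on the recovered reads (-0.74, adjusted p = 0.0438), a weight per library (-0.77, adjusted p = 0.0242) and without EC KO replicate 1 (-0.72, adjusted p = 0.0267).

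Slc2a8, an intracellular carrier, and Tbc1d1, the relative of Tbc1d4 that AMP-activated protein kinase also phosphorylates, did not pass the test anywhere. For Slc2a8, Control read 406 and 514, EC KO 417, 472 and 431, CM KO 417, 414 and 499, and Total KO 489, 433 and 505. For Tbc1d1, Control read 257 and 269, EC KO 266, 276 and 279, CM KO 243, 263 and 240.4, and Total KO 280.1, 287 and 254. For both genes the groups overlapped in every comparison but Tbc1d1 between EC KO and CM KO, where the lowest EC KO library read 266 and the highest CM KO library 263. Of the 95% intervals of Slc2a8, the bound farthest from 0 was 0.37 on the log2 scale (Total KO minus EC KO, -0.15 to 0.37). Tbc1d1 differed by -0.08 ± 0.11 between CM KO and Control (interval -0.32 to 0.16), where Tbc1d4 fell by 1.38.

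**Figure D2:**
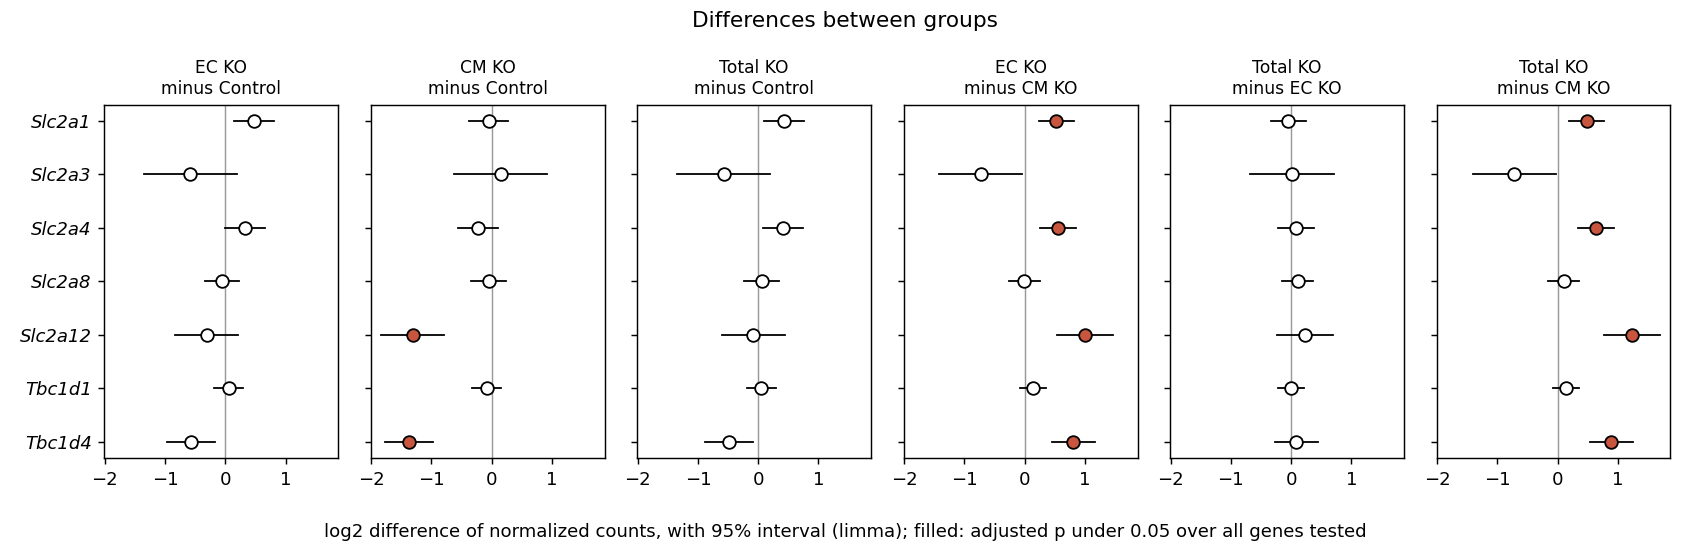
Log2 difference of normalized counts (horizontal axis) with its 95% interval from limma for the 7 genes (rows) in the 6 comparisons (panels); filled points have an adjusted p under 0.05. Filled points appear in the panels that involve CM KO, with Slc2a12 (-1.31) and Tbc1d4 (-1.38) below 0 against Control and Slc2a1, Slc2a4, Slc2a12 and Tbc1d4 above 0 in EC KO and Total KO against CM KO.

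Counted by comparison, CM KO minus Control called 2 of 7 genes, both lower, where 5.7% of all genes tested were called and 2.4% were called lower. Without Control replicate 1 this became 0 of 7, with 0.2% of all genes called, and in the fit to these groups alone 1 of 7, with 0.483%. EC KO minus CM KO called 4 of 7, all higher, against 19.1% of all genes in either direction and 8.72% higher. Total KO minus CM KO called the same 4 genes, all higher, against 16.4% in either direction and 8.2% higher. These comparisons share the 3 CM KO libraries, so their counts are not separate pieces of evidence. The 7 genes were also chosen with earlier results of these data known. Their counts beside the shares of all genes, in each comparison and in the F test, are therefore descriptions only. By limma, EC KO minus Control called 0 of 7 (0.316% of all genes), with 2 at an unadjusted p under 0.05, and Total KO minus Control called 0 of 7 (0.0848%), with 3 under 0.05. The shares in brackets are for the adjusted threshold and are no background for the counts at the unadjusted one. In EC KO minus Control, Slc2a4 lay just above the unadjusted threshold, at rank 1382 among the 12976 genes tested. In Total KO minus Control, Tbc1d4 lay under it at rank 550. Total KO minus EC KO called 0 of 7 (0.0385%) with 0 at an unadjusted p under 0.05, and its 95% intervals ran from -0.34 to 0.25 for Slc2a1, -0.22 to 0.38 for Slc2a4, -0.23 to 0.70 for Slc2a12 and -0.27 to 0.44 for Tbc1d4. edgeR and DESeq2 on recovered reads also called 0 of 7 in these 3 comparisons. Libraries of the groups compared did not overlap for 4 of 7 genes in EC KO minus Control, against 25.1% of all genes, for 2 in CM KO minus Control (36.6%), for 4 in Total KO minus Control (25.1%), for 6 in EC KO minus CM KO (38.8%), for 0 in Total KO minus EC KO (19.7%) and for 5 in Total KO minus CM KO (38.9%). In an F test over the 4 groups 4 of 7 passed, against 14.3% of all genes, the limma adjusted p being 0.00327 for Tbc1d4, 0.00766 for Slc2a12, 0.0235 for Slc2a4 and 0.0311 for Slc2a1. With Slc2a1 and Slc2a4 the F test was lost when either CM KO replicate 3 or Total KO replicate 3 was left out, which left 2 of 7.

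**Figure D3:**
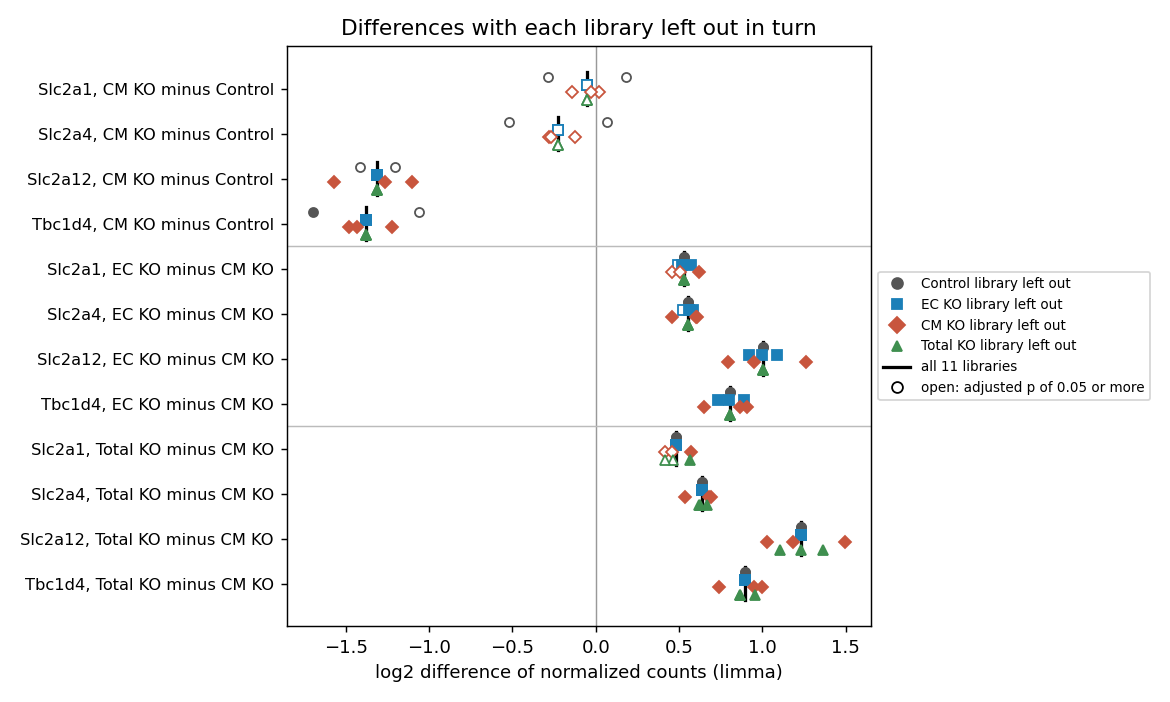
Log2 difference (horizontal axis) of the 4 genes called, in 3 comparisons (rows), when 1 library at a time was left out; the vertical bar is the value with all libraries, the symbol shows the group of the library left out and open symbols an adjusted p of 0.05 or more. Without Control replicate 1 or 2 the Slc2a4 difference between CM KO and Control ran from -0.52 to 0.07, while those of Slc2a12 and Tbc1d4 in that comparison stayed at -1.06 or below.

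Some pairs of genes had like profiles over the libraries. Pearson's r of log2 values over the 11 libraries was 0.83 for Slc2a1 with Slc2a4 (Spearman's correlation 0.85) and 0.84 for Slc2a12 with Tbc1d4 (Spearman 0.66), while Slc2a4 with Tbc1d4 gave 0.40 (Spearman 0.26). The points share libraries, depth and the 4 groups, so these are descriptions and carry no test. The ratio of Slc2a4 to Slc2a1 counts lay between 18.9 and 22.6 in 10 libraries and was 14.5 in CM KO replicate 1, the library lowest in Slc2a4 and highest of CM KO in Slc2a1. The ratio of Slc2a4 to Tbc1d4 counts was 1.73 and 4.03 for Control, 4.29 to 5.76 for EC KO, 5.44 to 6.36 for CM KO and 4.79 to 5.12 for Total KO, so all 9 knockout libraries exceeded both Controls. The ratio of Tbc1d4 to Tbc1d1 was 13.9 and 8.58 for Control, 6.28 to 8.05 for EC KO, 3.66 to 5.29 for CM KO and 6.58 to 8.43 for Total KO. In this ratio both Controls exceeded all 9 knockout libraries and the 3 CM KO libraries were lowest.

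**Figure D4:**
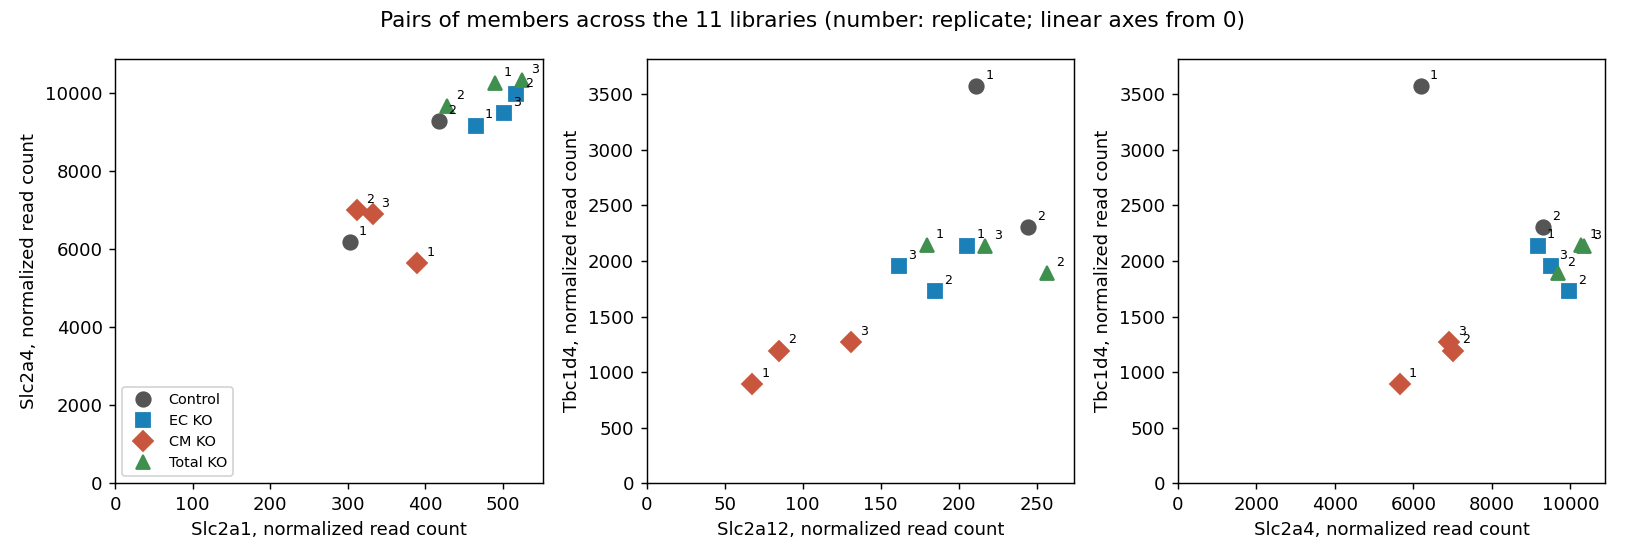
Normalized read counts of 3 pairs of genes (both axes linear from 0) in the 11 libraries, with colour and shape for the group and the replicate number beside each point. Slc2a1 and Slc2a4 rise together with CM KO and Control replicate 1 at the low end; Slc2a12 and Tbc1d4 place CM KO at the low end of both axes; in the right panel Control replicate 1 stands alone with a Tbc1d4 count of 3577 at a Slc2a4 count of 6191.

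Among 12153 other named genes tested, those most like each member over the 11 libraries were found by Pearson's r of log2 values. Tbc1d4 was closest to Ech1 (r = 0.964), an enzyme that prepares unsaturated fatty acids for oxidation, and to Ppm1k (0.962), the phosphatase that activates breakdown of branched-chain amino acids. Ech1 read 39082 and 26257 in Control and 9604, 17676 and 16249 in CM KO, with Control replicate 1 on top and CM KO replicate 1 at the bottom as for Tbc1d4. Slc2a12 was closest to Apool (0.967), a protein of mitochondrial inner membrane organisation, and Bcar3 (0.961). Both fell in CM KO against Control by limma, Apool by 0.54 (adjusted p = 0.0149) and Bcar3 by 0.76 (adjusted p = 0.0367). Genes chosen for likeness to a member in these libraries share its pattern by choice, so these falls are descriptions only. Slc2a4 was closest to Actn2 (0.964), the Z-disc protein of muscle that is also in the cardiomyocyte marker list, and to Gart (0.962), an enzyme of purine synthesis. Slc2a1 was closest to the kinase Map2k3 (0.934) and Lsm14b (0.908), Slc2a3 to Klhl5 (0.929) and Bmp2k (0.918), Slc2a8 to the folate carrier Slc19a1 (0.914) and Oaz2 (0.896), and Tbc1d1 to the muscle kinase Speg (0.903) and Hps4 (0.902). For Slc2a3 the value of EC KO replicate 1 was also the lowest in Klhl5 (187) and Bmp2k (54.4).

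Marker sums of cardiomyocytes, endothelium, fibroblasts and macrophages set the CM KO group apart. Its pericyte and smooth muscle sums overlapped those of Control and EC KO. The summed normalized count of 8 cardiomyocyte markers was 700502 to 1001850 for CM KO, against 1063170 to 1129700 for Control, 1185180 to 1223790 for EC KO and 1140550 to 1239310 for Total KO. CM KO was also below the other groups in the sum of 10 endothelial markers (15398 to 16233, against 16764 to 22441 elsewhere) and above them for 8 fibroblast markers (20327 to 36292, against 13350 to 17181) and 8 macrophage and monocyte markers (8314 to 15312, against 4060 to 5824). CM KO replicate 1, lowest of all 11 libraries in Tbc1d4, Slc2a12 and Slc2a4, had the lowest cardiomyocyte sum and the highest fibroblast and macrophage sums. Between CM KO and Control, 0 of 8 cardiomyocyte markers were called by limma. Their median difference was -0.29, against -1.38 for Tbc1d4 and -1.31 for Slc2a12. Single cardiomyocyte markers ran from -0.67 (Tnni3) to 0.16 (Mybpc3), with -0.48 for Myh6, the marker of highest count in the sum. In the same comparison 8 of 8 macrophage and monocyte markers (median 1.28) and 4 of 8 fibroblast markers (median 0.85) were called higher. Of all genes, 5.7% were called there in either direction. Of 6 pericyte and smooth muscle markers 1 was called higher and 2 lower, and of 10 endothelial markers 0 were called (median -0.20). Between EC KO and CM KO, 3 of 8 cardiomyocyte markers (median 0.36) and 7 of 10 endothelial markers (median 0.42) were called higher. Between Total KO and CM KO, 1 of 8 cardiomyocyte markers (median 0.37) and 1 of 10 endothelial markers (median 0.09) were called higher. Of all genes, 8.72% were called higher in EC KO minus CM KO and 8.2% in Total KO minus CM KO. The counts of 1 of 8 and 1 of 10 are thus near the share of all genes. In these comparisons Slc2a4 differed by 0.56 and 0.64 and Slc2a1 by 0.53 and 0.48. In both, 8 of 8 macrophage and monocyte markers and 7 of 8 fibroblast markers were called lower. Of all genes, 19.1% and 16.4% were called in either direction. The 4 atrial markers summed to 197 to 306 in CM KO and to at most 115 elsewhere, a gap carried by Mybphl (4.57 in CM KO minus Control), while Myl4, the other atrial marker tested, differed by -0.04. Markers of fat and skeletal muscle, the other tissues known for GLUT4, were near 0: 6 adipocyte markers summed to at most 38.4, with Lep at 0 in every library, and 6 skeletal muscle markers to at most 54.4. Of the erythroid markers Hba-a1 and Hba-a2 were at 0 in every library and the list summed to at most 116. The part of these cell types in the differences of the 7 genes was not tested.

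A list of 91 further genes of glucose uptake and GLUT4 traffic, in 8 groups, was read from the same fit, and 84 passed the filter. CM KO minus Control called 3 of 84 (3.57%, against 5.7% of all genes), EC KO minus CM KO called 17 (11 higher and 6 lower, 20.2%, against 19.1%) and Total KO minus CM KO called 16 (8 higher and 8 lower, 19.0%, against 16.4%), shares near those of all genes. By limma, EC KO minus Control, Total KO minus Control and Total KO minus EC KO called 0, with 9, 4 and 8 at an unadjusted p under 0.05. The share of all genes under that threshold is not given here, so these 3 counts are descriptions only. In EC KO minus Control the member Slc2a4 lay just above it at rank 1382 among the 12976 genes tested. DESeq2 called 1 of the 84 list genes in EC KO minus Control. Median differences of the list ran from -0.03 to 0.02 over the 6 comparisons, against -0.01 to 0.01 for all genes.

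Of 15 genes that carry the insulin signal to GLUT4, 5 were called higher in EC KO than in CM KO and 0 lower. Of all genes, 8.72% were called higher and 19.1% in either direction. The list was chosen with earlier results of these data known, so its count is a description only. Pik3r1, a regulatory subunit of phosphoinositide 3-kinase, read 5553, 4608 and 4888 in EC KO against 1168, 2239 and 1588 in CM KO, a difference of 1.64 ± 0.22 (log2 ± SE; limma adjusted p = 0.000909). Total KO at 4153, 2750.5 and 3009 lay between these groups and exceeded CM KO by 1.02, while Control at 2986 and 1956 reached into the CM KO range. Irs1, the insulin receptor substrate, was higher in EC KO than in CM KO by 0.85, Pdpk1, which phosphorylates Akt, by 0.41 and Akt2, the Akt form tied to GLUT4, by 0.31. Grb14, an adaptor that inhibits the insulin receptor, was called in 3 comparisons: from Control to CM KO it fell by 0.74 (limma adjusted p = 0.00544), and relative to CM KO it was 0.61 higher in EC KO and 0.79 higher in Total KO. Its libraries read 1254, 1361 and 1604 in CM KO and 2024 to 2514 in the 8 others, with no overlap. Akt2 also passed between Total KO and CM KO, at 0.36.

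The other groups of the list moved in both directions. Among 10 genes of AMP-activated protein kinase, the muscle subunit gene Prkag3 was lower than in CM KO by 1.63 in EC KO and 1.19 in Total KO, reading 94.9, 87.4 and 72.0 in CM KO and 23.9 to 43.5 in EC KO and Total KO, and 42.0 and 72.3 in Control. Prkag2 was lower in Total KO than in CM KO (-0.42), and Cab39, a partner of the kinase Stk11, was higher than in CM KO by 0.48 in EC KO and 0.35 in Total KO. Of 13 genes of GLUT4 storage vesicles, Lrp1, a large endocytic receptor found in these vesicles and abundant in fibroblasts and macrophages, rose from Control to CM KO by 1.04 ± 0.17 (limma adjusted p = 0.00788), reading 7188, 4590.0 and 5583 in CM KO against 2402 to 3318 in the 8 others. It was lower than in CM KO by limma in EC KO (-0.91) and Total KO (-0.87). The fibroblast and macrophage marker sums were also lower in these groups than in CM KO, and a link with Lrp1 was not tested. Tusc5 (Trarg1), a membrane protein of GLUT4 vesicles, was lower in EC KO than in CM KO (-0.55).

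Of 14 genes for tethering and fusion of vesicles, Myo5a, a motor that moves vesicles along actin, rose from Control to CM KO by 0.81 (limma adjusted p = 0.0342), and both EC KO (-0.69) and Total KO (-0.78) were lower than CM KO. Myo1c, another actin motor, was lower than in CM KO by 0.52 in EC KO and 0.41 in Total KO. Ralgapa2, a subunit of the GTPase-activating complex for RalA, was higher than in CM KO by 0.50 in EC KO and 0.71 in Total KO, and the fusion protein Snap23 by 0.32 and 0.31. The Rab GTPase gene Rab8b was lower in Total KO than in CM KO by limma (-0.62). Rab10, a target of Tbc1d4, read 2059.8 to 2518 in the 11 libraries and was not called. Arrdc3 (-0.71) and Arrdc4 (-0.73), arrestin-family proteins, the latter able to draw glucose carriers from the membrane, were lower in Total KO than in CM KO.

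Of 13 transcription factors and cofactors linked to Slc2a4 or Slc2a1, EC KO minus CM KO called 2 higher and 1 lower (19.1% of all genes called) and Total KO minus CM KO called 1 higher (16.4%), shares near those of all genes or below. Ppargc1a, the coactivator of mitochondrial genes, was higher than in CM KO by 0.88 in EC KO and 1.16 in Total KO, reading 819, 1878 and 1412 in CM KO and 1758 to 3543 in EC KO and Total KO, ranges that overlap. In EC KO against CM KO, Epas1, the hypoxia-inducible factor abundant in endothelium, was higher by 0.47 and Hif1a lower by 0.35. Of 11 further sugar carriers 4 passed the filter, and the sodium-glucose cotransporter Slc5a1 exceeded its CM KO level in EC KO by 1.87 ± 0.33 (limma adjusted p = 0.00331) and, with 1.37 ± 0.33, in Total KO (adjusted p = 0.0168). Its counts were low: CM KO read 9.26, 14.2 and 19.6, Control 25.6 and 13.4, EC KO 72.5, 44.3 and 46.0, and Total KO 43.3, 32.4 and 36.7. Slc2a10 read 17.1 to 49.4 and was not called. Slc2a2, Slc2a5, Slc2a6 and Slc2a13 averaged 2.71 to 6.85, below the filter, and Slc2a7 was at 0 in every library.

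**Figure D5:**
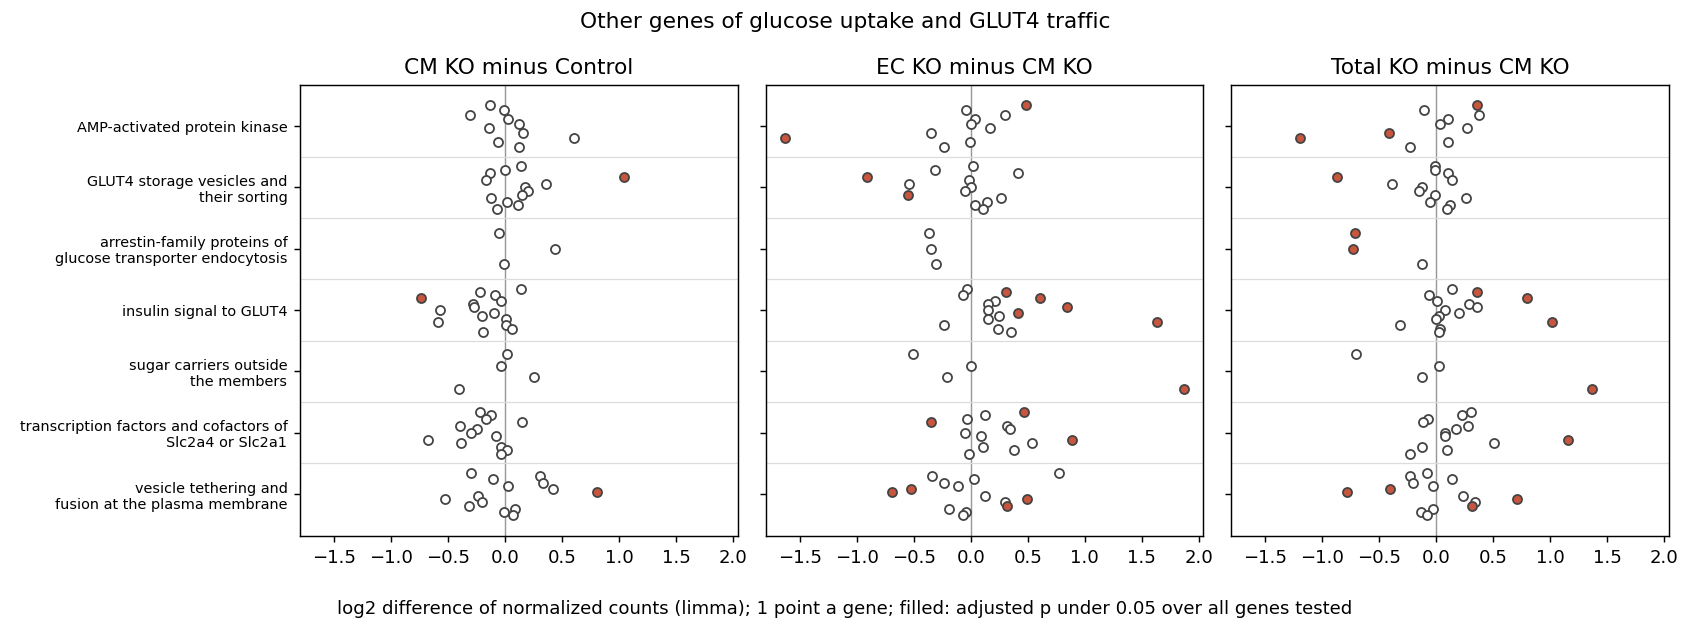
Log2 difference of normalized counts (horizontal axis) of the tested genes in 7 of the 8 groups of the list (rows), 1 point a gene, and in 3 comparisons (panels); filled points have a limma adjusted p under 0.05. The insulin signal row has 5 filled points in EC KO minus CM KO, all above 0, while the other rows hold few filled points or filled points on both sides of 0.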

How the data were processed

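Per the submitters' processing notes, the authors used TopHat2 on mm10, HTSeq 0.8.0 and DESeq2, for which the notes give version 3.5; counting mode, strand setting and annotation are not given in the sources used here. Per the labels' protocols, libraries came from 400 ng of total RNA with a stranded kit after ribosomal RNA removal. The deposited signal values are read counts that the authors divided by 1 factor per library: all 257620 values (100%) lay within 0.05 reads of whole reads, which were recovered. Log2 of the value plus 1 was fitted with limma 3.58.1 in R 4.3.3 (trended prior, 1 model over 11 libraries), for 12976 genes with a mean of at least 10, and p-values were adjusted over these genes. Only the limma fit was tested on simulated data, with changes larger than those of Slc2a1 and Slc2a4. On recovered reads edgeR 4.0.16 (quasi-likelihood) called 1007 genes between CM KO and Control, 2423 between EC KO and CM KO and 2410 between Total KO and CM KO; DESeq2 1.42.0 called 1276, 2477 and 2524.

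Replicates are numbered in the order of deposit. Exon lengths and coordinates are from GENCODE M21 on GRCm38 (mm10). Named genes are the 7 members, Cd36, list genes called anywhere, the 2 of lowest F test p in each list, and the 2 most similar genes of each member. The members and lists were chosen with earlier results of these data known. Alternatives were pseudocounts of 0.5 and 5, no filter, a filter at 50, rescaling by library totals or upper quartiles, quantile normalization, a weight per library, a fit to 2 groups, edgeR, DESeq2, each library left out, and replicates 1 of the 3 knockout groups left out together. The counts of 1 of the 8 groups of list genes are not reported here.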

Additional observations from a re-analysis of the deposited data

How the results depend on the processing

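No paired analysis was possible because the replicate numbers only follow the order of deposit. Of the differences of the 7 genes under the alternatives, 903 values kept their direction and side of the threshold, 19 lost the call, 3 gained it and 35 changed sign. Tbc1d4 and Slc2a12 were called higher in Total KO than in CM KO under all 23 alternatives, with ranges of 0.71 to 0.99 and 0.97 to 1.49. Fits with 1 Control library take its spread from the other groups.

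The number of the 7 genes called in CM KO minus Control, 2 with all libraries, ranged from 0 to 2 with 1 library left out (0 without Control replicate 1, 1 without Control replicate 2) and was 1 in the fit to those groups alone. In EC KO minus CM KO it ranged from 2 to 4. The 2 came without EC KO replicate 2, where Slc2a1 and Slc2a4 were lost. Of all genes, 12.4% were called at that setting, against 19.1% with all libraries. Replicates 1 of the 3 knockout groups include the shallowest library. Without these 3 libraries, the share of all genes called in EC KO minus CM KO went from 19.1% to 9.94%. In Total KO minus CM KO it went from 16.4% to 7.08%. Leaving out these 3 together left 1 called in EC KO minus CM KO (Slc2a1; Tbc1d4 0.58, Slc2a12 0.71 and Slc2a4 0.48 with limma adjusted p = 0.0663, 0.0550 and 0.0847), 2 in Total KO minus CM KO (Slc2a4 0.52, adjusted p = 0.0751, and Slc2a1 0.56, adjusted p = 0.0660, were lost) and 2 in the F test. The F test ranged from 2 to 4 with 1 library left out. The cause was not tested; fewer libraries also give less power.

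Signs changed for differences that were not called, and for none that was. With 1 library left out, these ran from -0.284 to 0.181 for Slc2a1 and -0.518 to 0.0688 for Slc2a4 in CM KO minus Control, and for Slc2a8 from -0.227 to 0.115 in EC KO minus Control, -0.220 to 0.122 in CM KO minus Control, -0.115 to 0.226 in Total KO minus Control and -0.0582 to 0.0805 in EC KO minus CM KO. Slc2a12 ran from -0.204 to 0.0530 in Total KO minus Control, and in Total KO minus EC KO Slc2a1 ran from -0.110 to 0.0361, Slc2a3 from -0.422 to 0.276 and Tbc1d1 from -0.0367 to 0.0531. Slc2a3 in Total KO minus EC KO also gave -0.000116 with a pseudocount of 5, -0.00155 with quantile normalization, -0.00194 with library totals, -0.357 with a weight per library, -0.314 in edgeR, -0.307 in DESeq2 and -0.544 with the 3 replicates 1 left out, and it was not tested with the filter at 50. With library totals, Slc2a1 (0.0341), Slc2a8 (0.0367) and Tbc1d1 (0.00366) changed sign in CM KO minus Control, and Slc2a8 (-0.0336) and Tbc1d1 (-0.00153) in Total KO minus CM KO. Slc2a8 gave 0.0404 in CM KO minus Control with a weight per library, and 0.00353 in edgeR and 0.00414 in DESeq2 in EC KO minus CM KO. Slc2a4 gave -0.0324 in Total KO minus EC KO with quantile normalization, and Slc2a12 0.0530 in Total KO minus Control with the 3 replicates 1 left out.

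Rescaling by library totals moved the median of all genes by over 0.1, to -0.12 in EC KO minus CM KO and -0.14 in Total KO minus CM KO, and the share of calls that were higher from 45.6% and 50% to 23.5% and 23.8%; in CM KO minus Control the share went from 57.8% to 70.6%. Over all genes, CM KO minus Control called 739, and 26 without Control replicate 1, 366 without CM KO replicate 1, 476 without Total KO replicate 3, 63 in the fit to 2 groups and 1276 in DESeq2. EC KO minus CM KO called 2479, and 1288 with the 3 replicates 1 left out; Total KO minus CM KO called 2128, and from 917 with these left out to 3553 with a weight per library. EC KO minus Control called 41 (5 to 162), Total KO minus Control 11 (1 to 93) and Total KO minus EC KO 5 (0 to 116). Of the 84 list genes, CM KO minus Control called 0 to 5, EC KO minus CM KO 10 to 25 and Total KO minus CM KO 6 to 26 over the alternatives. Slc2a3, at 3 reads in EC KO replicate 1, is the gene most limited by depth.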
